A study of Mus musculus with 17 samples.

Results

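The genes described here are 40 genes of the type I interferon response, chosen by name: they are the genes of the deposited count table whose symbol is on a list of well-known interferon-stimulated genes. Each of the 40 symbols was found in the table of 55536 genes, and all 40 were among the 15352 genes that passed the filter on low counts. Type I interferons bind a receptor made of IFNAR1 and IFNAR2, whose kinases JAK1 and TYK2 activate STAT proteins. Among these STAT2 joins IRF9 in a factor that binds the interferon-stimulated response element (ISRE) in promoters of genes for antiviral proteins, RNA sensors and feedback inhibitors. B cells carry the receptor, and many of these genes keep a basal level of expression in lymphocytes without infection.

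RNA was sequenced from flow-sorted B cells of the mouse spleen, in 17 libraries of 6 groups. The mice carried a knock-in of p52, the NF-kB subunit made from Nfkb2, or were wild type (WT), and the study's title names a p52 and ETS1 complex and its role in forming germinal centres (GC). The groups were p52ki naive, p52ki activated and p52ki GC cells, and WT naive, WT activated and WT GC cells. There were 3 libraries in each group except p52ki GC, which had 2. Naive B cells are resting cells before antigen contact, and GC B cells are the dividing cells that mutate and select their antibody genes. Beyond the words p52ki and WT, the change made in the knock-in, the strain, the age of the mice, the immunization, the sorting gates and the origin of replicates from separate animals are not stated by the labels.

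Library totals ran from 4067281 to 10036347 counts, and values below are CPM, counts scaled to a common library total, where 1 count was worth 0.0996 to 0.246 CPM. The 5 B cell markers, which include Cd79a, Cd79b, Ms4a1 and Cd22, were present in all 17 libraries, with a summed level of 9018 to 18350 CPM. The 7 GC markers, which include Bcl6 and S1pr2, summed to 921 and 1635 CPM in p52ki GC libraries and 1672 to 2380 CPM in WT GC libraries, against at most 198 CPM elsewhere. Some GC libraries stood apart by the number of genes with a count. It was 11390 in p52ki GC replicate 2, 13044 in p52ki GC replicate 5 and 11232 in WT GC replicate 3, against 16745 to 19672 in the other 14 libraries. Library numbers were 19 to 30 in p52ki and 1 to 12 in WT, so a batch that follows this order and the genotype cannot be told apart.

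The ISRE core searched for was GAAANNGAAA, on both strands, in the RefSeq promoter windows of build GRCm38.p6 (250 bases before to 50 bases after a start). Of the 40 genes 30 were in the promoter table. The core was present in 15 of these 30 (50%), against 3.44% of all 32851 promoter windows. A second motif, TTCNNNGAA, the core of sites bound by activated STAT dimers, was present in 8 of the 30 (26.7%) and in 8.3% of all windows. The windows below are those of genes that were lower in WT GC cells than in WT activated cells, and of Isg15, which has overlapping matches. The shared GAAA repeats were set by the search, and the windows show where members differ between and beside the repeats. Capitals mark the core, and the strand is that on which it reads GAAA.
Ifit1, chr19:34640779-34640800, minus strand: agactgGAAAGTGAAActgaag
Ifit1, chr19:34640798-34640819, minus strand: cagtgaGAAACTGAAActgaga
Ifit3, chr19:34583367-34583388, minus strand: gaagagGAAAGTGAAActtacc
Ifit3, chr19:34583401-34583422, minus strand: aaagtaGAAACTGAAAcagact
Rsad2, chr12:26456557-26456578, plus strand: ttttctGAAAATGAAAgttgga
Ifih1, chr2:62646208-62646229, minus strand: agaatcGAAACAGAAAccgatc
Ddx58, chr4:40239808-40239829, plus strand: ccatagGAAATCGAAActgcct
Trim30a, chr7:104465214-104465235, plus strand: aactgaGAAAAAGAAActaaag
Slfn8, chr11:83020843-83020864, plus strand: tttgggGAAAACGAAActgctc
Slfn5, chr11:82951941-82951962, plus strand: caaagtGAAAAAGAAAaaaaaa
Isg15, chr4:156200869-156200902, minus strand: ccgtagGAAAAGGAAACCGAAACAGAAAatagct

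Of the genes called lower in WT GC cells against WT activated cells, 12 were in the promoter table and 8 of these held the core, against 7 of the 18 members in the table that were not called. Matches to these letters are a description of sequence and not of binding. The whole windows are given for the 4 members in the table with the smallest p in that comparison, Oasl1, Ddx58, Trim30a and Ifi203. Oasl1 and Ifi203 held no match to the core in this window, and in Ddx58 and Trim30a the match, in capitals, lies on the strand opposite to the gene and so reads TTTC first. Each runs 5′ to 3′ on the strand of its gene.
Oasl1, chr5:114922990-114923289, plus strand: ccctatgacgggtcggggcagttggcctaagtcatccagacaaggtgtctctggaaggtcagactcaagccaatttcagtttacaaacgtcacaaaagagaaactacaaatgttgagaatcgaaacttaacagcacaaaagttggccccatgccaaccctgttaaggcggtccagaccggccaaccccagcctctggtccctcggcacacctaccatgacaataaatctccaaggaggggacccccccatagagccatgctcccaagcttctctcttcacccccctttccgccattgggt
Ddx58, chr4:40239776-40240075, minus strand: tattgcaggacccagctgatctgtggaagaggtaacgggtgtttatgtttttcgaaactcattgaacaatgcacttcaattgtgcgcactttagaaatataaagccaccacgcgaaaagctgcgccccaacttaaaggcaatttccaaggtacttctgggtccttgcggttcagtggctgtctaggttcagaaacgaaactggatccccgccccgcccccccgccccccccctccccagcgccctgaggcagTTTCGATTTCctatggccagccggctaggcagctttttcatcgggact
Trim30a, chr7:104465144-104465443, minus strand: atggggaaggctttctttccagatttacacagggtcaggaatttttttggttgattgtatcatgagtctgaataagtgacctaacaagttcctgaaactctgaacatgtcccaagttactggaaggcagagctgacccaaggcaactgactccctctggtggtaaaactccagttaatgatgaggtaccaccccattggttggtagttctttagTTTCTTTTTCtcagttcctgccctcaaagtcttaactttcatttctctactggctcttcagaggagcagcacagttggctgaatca
Ifi203, chr1:173942623-173942922, minus strand: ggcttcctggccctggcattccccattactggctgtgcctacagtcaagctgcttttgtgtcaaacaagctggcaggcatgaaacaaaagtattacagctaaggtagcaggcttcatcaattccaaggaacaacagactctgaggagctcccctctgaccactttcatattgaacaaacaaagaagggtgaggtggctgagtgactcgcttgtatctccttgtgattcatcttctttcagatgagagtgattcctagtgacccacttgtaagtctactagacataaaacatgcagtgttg

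Several members lie beside each other. On chromosome 5 Oasl2 and Oasl1 are 11005 bases apart, and Oas2 and Oas3 are 3244 bases apart. Ifit2 and Ifit3 are 7111 bases apart on chromosome 19, and Rsad2 and Cmpk2 are 12751 bases apart on chromosome 12 and transcribed away from each other. Dtx3l and Parp9 on chromosome 16 overlap by 682 bases on opposite strands, so without strand in the counting some reads of these genes cannot be told apart. The same holds for Ifi35, which shares 16.8% of its exon length with an antisense gene, and for Slfn5, which shares 8.84%. Rtp4 shares 13.9% and Herc6 13.7% with a processed transcript on the same strand, which counting by strand would not separate. Reads of Oas1a, Ifit3, Ifi203 and Trim30a may also match close paralogs, and their levels are uncertain to that extent.

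Naive cells of either genotype already expressed nearly all of these genes. Per length, the highest mean levels in WT naive cells were those of Ifi35 (76.7 CPM per kb of exon), Ifi203 (67.5), Samhd1 (66.2) and Ifi27 (51.6). The lowest were those of Ifi44 (0.0623 CPM per kb) and Ifih1 (0.432 CPM per kb). The summed level of the 40 genes was 2591, 2445 and 2586 CPM in the p52ki naive libraries and 2394, 2468 and 2557 CPM in the WT naive libraries. It was 3044, 2513 and 2742 CPM in p52ki activated and 2330, 2660 and 2461 CPM in WT activated libraries. In GC libraries the sum was 1580 and 1496 CPM in p52ki and 1110, 1303 and 1150 CPM in WT. Both GC groups lay below every naive and activated library, and p52ki GC lay above WT GC. Samhd1, an enzyme that degrades deoxynucleotides, made up much of the GC sum, with 566 and 476 CPM in p52ki and 513, 653 and 551 CPM in WT. Without Samhd1 the GC sums were 1013 and 1019 CPM in p52ki and 597, 651 and 599 CPM in WT. RNA from fewer cells of a type and less RNA per cell cannot be told apart in such bulk libraries.

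**Figure D1:**
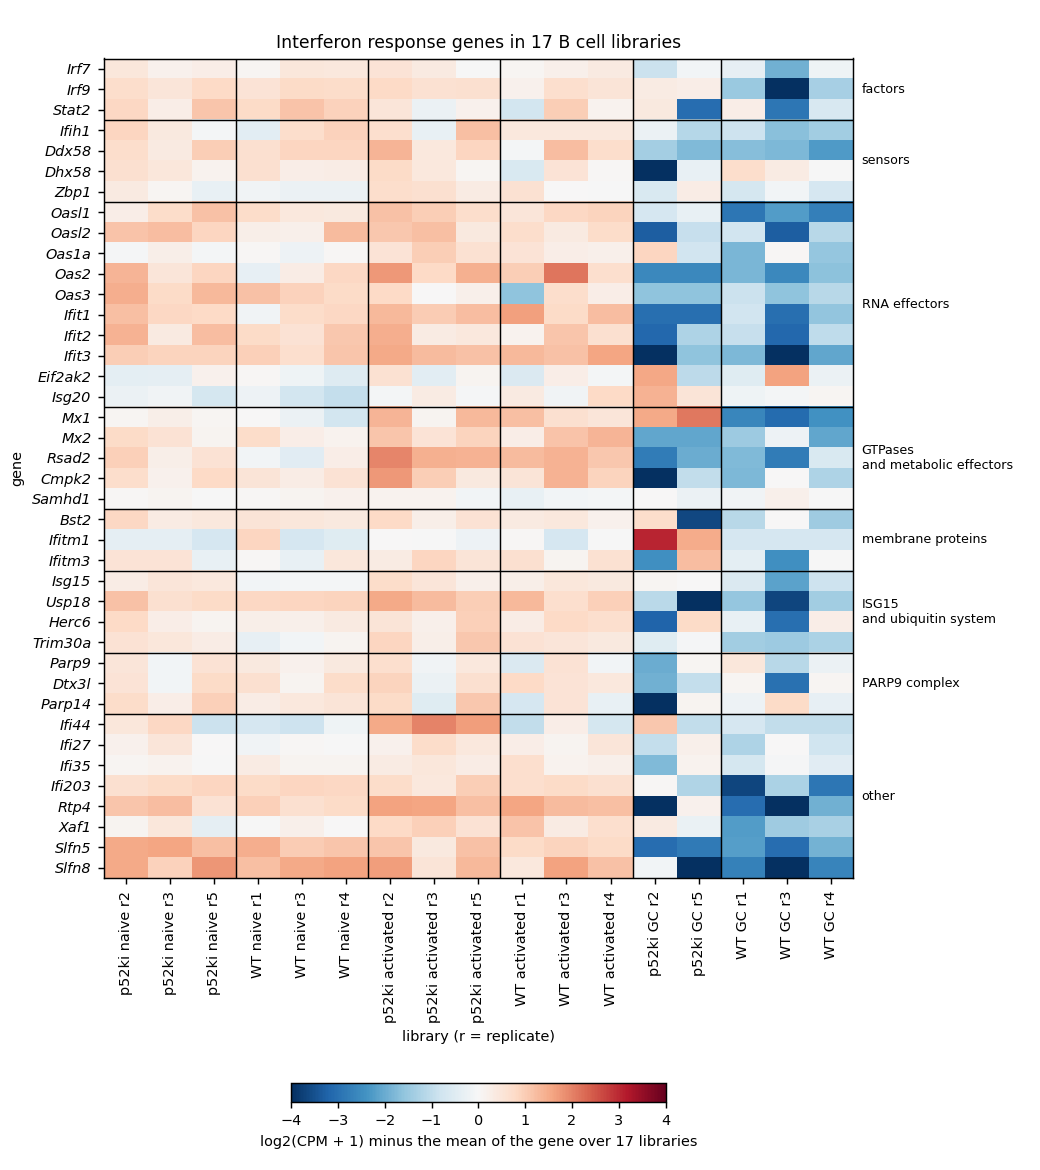
Level of each of the 40 genes (down the page, grouped by role) in each of the 17 libraries (across, 3 stages in order, p52ki left of WT), as log2(CPM + 1) minus the gene's mean over the libraries. Most genes are blue in the 5 GC libraries; Mx1, with 23.4 and 35.8 CPM in p52ki GC and at most 0.604 CPM in WT GC, stands apart.

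Activation against the naive state changed none of the 40 genes past the threshold, an adjusted p under 0.05. Adjusted p-values are from the quasi-likelihood test of edgeR, with Benjamini-Hochberg adjustment over the genes that passed the filter. In p52ki cells 0 members and 0.117% of all genes were called, and in WT cells 0 members and 0.319% of all genes. At an unadjusted p under 0.05 there were 0 members in p52ki and 3 in WT, beside 614 and 860 of the 15352 genes tested. DESeq2 called 0 members in each, and limma voom with quality weights called 5 in p52ki and 7 in WT, all higher. The shares of all genes called by these methods are not given here. With the replicate number as a block, 0 members were called in either genotype. The median log2 difference of the members was 0.24 in p52ki and 0.26 in WT, beside 0.00 for all genes in each. Every activated library lay above every naive library for 8 members in p52ki (20%, against 11.2% of all genes) and for 11 in WT (27.5%, against 8.83%). It lay below for 1 member in p52ki (2.5%, against 7.37% of all genes) and for 3 in WT (7.5%, against 9.92%).

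Trim30a, a mouse TRIM protein that dampens Toll-like receptor signalling, had the smallest p on activation in WT. Its level was 200, 188 and 172 CPM in WT activated and 105, 122 and 143 CPM in WT naive libraries (log2 difference 0.68, SE 0.23, adjusted p = 0.422), and the libraries did not overlap. Rsad2, which encodes the antiviral enzyme viperin, did not overlap between these stages in either genotype. It had 26, 17.7 and 17.4 CPM in p52ki activated against 12.5, 7.19 and 9.34 CPM in p52ki naive libraries. In WT it had 15.9, 17.2 and 13.8 CPM in activated against 5.42, 4.08 and 7.45 CPM in naive libraries. The differences of 1.09 (SE 0.80) in p52ki and 1.54 (SE 0.81) in WT on the log2 scale did not pass the test, with an adjusted p of 1 in each. The change on activation was called different between genotypes for 0 members and 0% of all genes. At an unadjusted p under 0.05 there were 0 members and 65 of the 15352 genes tested. DESeq2 and limma voom called 0 members.

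Before the GC stage no member was called between the genotypes. In naive cells 0 members and 0% of all genes were called between p52ki and WT, and in activated cells 0 members and 0.013% of all genes. At an unadjusted p under 0.05 there was 1 member at each stage, beside 80 of the 15352 genes tested in naive and 134 in activated cells. DESeq2 and limma voom called 0 members at each. In naive cells the member was Trim30a, with 198, 182 and 165 CPM in p52ki and 105, 122 and 143 CPM in WT (log2 difference 0.55, SE 0.23, unadjusted p = 0.0281, adjusted p = 1). In activated cells it was Ifi44, a gene strongly induced by interferon in many cells, with 4.68, 6.89 and 5.36 CPM in p52ki and 0, 1.4 and 0.233 CPM in WT (3.31, SE 1.33, unadjusted p = 0.0251, adjusted p = 1). Neither gene overlapped between genotypes at that stage. Every p52ki library lay above every WT library for 3 members in naive cells (7.5%, against 5.3% of all genes) and for 3 in activated cells (7.5%, against 4.34%). No member lay wholly below at either stage, against 5.04% of all genes in naive and 2.38% in activated cells. Isg15, a ubiquitin-like modifier attached to many proteins, was among the 3 in naive cells, with 4.42, 5.12 and 4.87 CPM in p52ki and 3.08, 3.19 and 3.21 CPM in WT (0.59, SE 0.66, adjusted p = 1).

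In GC cells against activated cells many response genes were lower in both genotypes. In p52ki 12 of 40 members were called lower (30%, against 19.3% of all genes called lower; 25.6% were called in either direction). In WT 16 were called lower (40%, against 7.75% called lower and 13.6% in either direction). DESeq2 called 15 members lower and 2 higher in p52ki, and 23 lower in WT. With limma voom 26 were called in WT, but 0 in p52ki (1.24% of all genes; 11 members at an unadjusted p under 0.05), so that each p52ki call described below was lost there (adjusted p = 0.0848 to 0.47). The other shares of all genes above are those of edgeR. Those of DESeq2, and of limma voom in WT, are not given here, so these counts have no background. Where a p52ki GC library is left out below, the lone library that remains is assumed to vary like the other groups. By edgeR no member was called higher in either genotype, while 6.34% of all genes were in p52ki and 5.8% in WT. The median log2 difference of the members was -1.23 in p52ki, beside -0.41 for all genes, and -2.36 in WT, beside -0.13. With genes at 0 in a whole group set to the bound that 3 counts over the group allow, the members' medians were -1.23 in p52ki and -2.13 in WT, and those of all genes -0.37 and -0.13. All GC libraries lay below all activated libraries for 26 members in p52ki (65%, against 40.1% of all genes) and for 30 in WT (75%, against 19%). The p52ki share of members below thus stands beside a high share of all genes below, in a group whose libraries had few detected genes.

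The 2 lists of lower genes come from different libraries and share 9 genes, which are 75% of the p52ki list and 56.2% of the WT list: Ddx58, Oasl1, Oas2, Usp18, Trim30a, Slfn5, Rsad2, Ifit3 and Ifit1. Of all 15352 genes tested, 2956 were called lower in p52ki and 1190 in WT. How many of those are shared was not counted, so the overlap of the members has no background. Mx2, Oas3 and Cmpk2 were called in p52ki alone, and Mx1, Ifi203, Xaf1, Rtp4, Slfn8, Irf9 and Ifih1 in WT alone. Of these 10, the difference between the genotypes' changes passed its own test for Mx1 only.

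**Figure D2:**
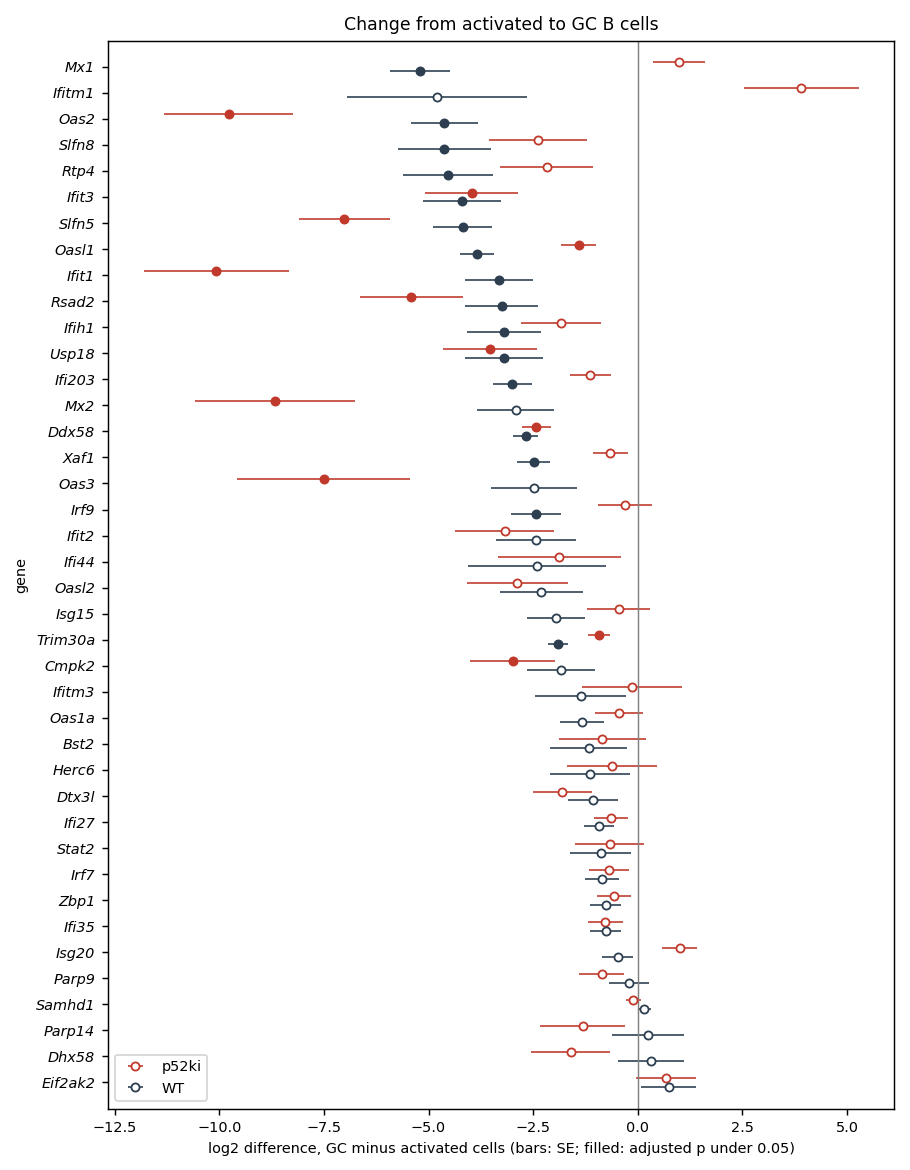
Log2 difference of GC minus activated cells (x axis) for each of the 40 genes (down the page, ordered by the WT value), with p52ki in red above WT in dark blue; bars are SE and filled points have an adjusted p under 0.05. All filled points lie left of 0; the values of Oas2, Ifit1, Mx2 and Oas3 in p52ki and of Ifitm1 in WT rest on a GC group with no count and are not measured sizes.

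Among the RNA sensors Ddx58, which encodes RIG-I, fell in both genotypes. It had 28 and 20.8 CPM in p52ki GC against 186, 97 and 133 CPM in p52ki activated libraries, and 21.9, 20.3 and 14.2 CPM in WT GC against 68.3, 174 and 120 CPM in WT activated libraries. The log2 difference was -2.43 (SE 0.35, adjusted p = 0.000373) in p52ki and -2.68 (SE 0.30, adjusted p = 5.71e-05) in WT. All GC libraries were below all activated ones, including those with many detected genes. Ifih1, which encodes the sensor MDA5, was low throughout, with 1.72 and 0.453 CPM in p52ki GC and 0.787, 0 and 0.201 CPM in WT GC, against 4.09, 1.58 and 6.23 CPM in p52ki activated and 3.22, 3.27 and 3.26 CPM in WT activated libraries. It was called in WT (-3.21, SE 0.88, adjusted p = 0.0252) and not in p52ki (-1.84, SE 0.95, adjusted p = 0.166). Without WT GC replicate 4 its adjusted p in WT was 0.0904, and without WT activated replicate 4 it was 0.0592. In all, the WT call was kept in 11 of the 15 alternative settings. Zbp1, a sensor of left-handed nucleic acids, had 19.7 and 38.2 CPM in p52ki GC and 18.4, 28.6 and 18.7 CPM in WT GC cells, and was not called in either genotype (adjusted p = 0.332 in p52ki and 0.195 in WT). Dhx58, which encodes the RIG-I-like regulator LGP2, had 0 and 16.5 CPM in p52ki GC and 34.2, 25.8 and 20.4 CPM in WT GC cells. Every p52ki GC library lay below every WT GC library, but the difference of -1.58 (SE 0.94) did not pass the test (adjusted p = 0.262).

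The Ifit genes, whose products bind foreign RNA, had few counts in GC libraries. Ifit3 had 0 and 4.38 CPM in p52ki GC against 45.9, 38.5 and 35.7 CPM in p52ki activated libraries (log2 difference -3.97, SE 1.11, adjusted p = 0.0185). It kept this call in 9 of the 13 alternative settings, over which the log2 difference ran from -11.3 to -0.67. In WT Ifit3 had 3.67, 0 and 2.92 CPM in GC against 39.4, 36.1 and 48.4 CPM in activated libraries (-4.20, SE 0.94, adjusted p = 0.00747). Ifit1 had no count in either p52ki GC library, against 19, 15.2 and 17.9 CPM in p52ki activated libraries, so it was at least 62-fold lower (adjusted p = 0.00153), with the floor of 0.281 CPM that 3 counts over the group allow. This bound and those below cover counting error only, and not RNA lost before counting. Rtp4, for example, had 0 and 25.4 CPM in the p52ki GC libraries. In WT Ifit1 had 3.8, 0 and 1.71 CPM in GC against 24, 12.6 and 18.1 CPM in activated libraries (-3.32, SE 0.81, adjusted p = 0.0143; 0.0537 without WT GC replicate 4). Ifit2 lay wholly below in both genotypes without passing the test (-3.18, SE 1.18, adjusted p = 0.0596 in p52ki; -2.43, SE 0.95, adjusted p = 0.11 in WT). The sites of Ifit1 and Ifit3 printed above include the same decamer, GAAACTGAAA, in both promoters.

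Oas2, an oligoadenylate synthetase that activates RNase L, had no count in p52ki GC libraries, against 18.6, 9.37 and 14.8 CPM in p52ki activated libraries, at least 50.9-fold lower (adjusted p = 0.000893). In WT it had 0.656, 0 and 0.906 CPM in GC against 10.8, 25 and 8.37 CPM in activated libraries (-4.63, SE 0.80, adjusted p = 0.0015). Its neighbour Oas3 had no count in p52ki GC libraries, against 4.28, 2.03 and 2.49 CPM in p52ki activated libraries, at least 10.5-fold lower (adjusted p = 0.0182). Oas3 lost this call without p52ki GC replicate 2 (adjusted p = 0.0534) or replicate 5 (0.0599), and was not called in WT (-2.47, SE 1.03, adjusted p = 0.134). In all, the p52ki call of Oas3 was kept in 8 of the 13 alternative settings. Oas1a, of the same family and chromosome 5 cluster, was called in neither genotype. It had 38.1 and 11.8 CPM in p52ki GC and 5.11, 21.1 and 6.34 CPM in WT GC libraries. Eif2ak2, the RNA-activated kinase PKR, was also called in neither. It had 40.6 and 5.89 CPM in p52ki GC and 9.18, 42.6 and 11.1 CPM in WT GC, and its highest values were in the GC library of each genotype with fewest detected genes (p52ki GC replicate 2 and WT GC replicate 3).

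Oasl1, which in mice represses translation of the factor IRF7, fell in both genotypes and by less in p52ki. It had 11.6 and 15.2 CPM in p52ki GC against 44, 38.7 and 31.3 CPM in p52ki activated libraries (log2 difference -1.41, SE 0.42, adjusted p = 0.024). In WT it had 1.7, 3.25 and 2.01 CPM in GC against 27, 34.7 and 35.8 CPM in activated libraries (-3.83, SE 0.41, adjusted p = 3.9e-05). The difference between these changes was 2.42 (SE 0.55, adjusted p = 0.0193). The p52ki change lost its call without p52ki activated replicate 2 (adjusted p = 0.0992), p52ki activated replicate 3 (0.0825) or p52ki GC replicate 2 (0.077). In all, the p52ki change kept its call in 6 of the 13 alternative settings. The difference between genotypes lost its call without WT activated replicate 4 (0.0535), p52ki activated replicate 2 (0.0508) or p52ki activated replicate 5 (0.0509). It was also lost with no filter on low counts (0.0912), with limma voom (0.255) and with the activated and GC libraries fitted alone (0.169). Its neighbour Oasl2 had 0 and 4.23 CPM in p52ki GC and 4.85, 0 and 3.62 CPM in WT GC, and was called in neither.

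The course of Mx1 into the GC stage differed between p52ki and WT. It encodes a dynamin-like GTPase that restricts influenza virus; many laboratory strains of mice carry disrupted Mx1 and Mx2 alleles, and the strain is not stated by the labels. From naive to activated to GC cells, Mx1 had 7.91, 9.14 and 8.02 CPM, then 20.7, 8.24 and 19.8 CPM, then 23.4 and 35.8 CPM in p52ki libraries. In WT libraries it had 7.64, 6.25 and 4.11 CPM, then 18.5, 12.4 and 10.8 CPM, then 0.393, 0 and 0.604 CPM. The p52ki GC libraries thus lay above all other libraries of the series, and the WT GC libraries below all others. The difference of GC minus activated was 0.98 (SE 0.62, adjusted p = 0.26) in p52ki and -5.20 (SE 0.72, adjusted p = 0.000239) in WT. The difference between these changes was 6.18 (SE 0.93, adjusted p = 0.00114), and it was called in each of the 20 alternative settings tried, with an adjusted p of 9.68e-12 to 0.0369. Such a difference of change was called for 2 members, Mx1 and Oasl1, both higher in p52ki (5%, against 0.977% of all genes called higher; 0 members against 4.97% of all genes were called lower, and 5.95% of all genes were called in either direction). Mx2, which lies 72400 bases from Mx1 with Fam3b between them, had no count in p52ki GC libraries and 0.525, 2.64 and 0 CPM in WT GC libraries. It was at least 23.5-fold lower in p52ki GC than in p52ki activated cells (adjusted p = 0.00613). In the same p52ki GC libraries Mx1 thus had its highest levels of the series and Mx2 no count.

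Of the other effectors, Rsad2 had 0 and 0.755 CPM in p52ki GC and 1.05, 0 and 3.52 CPM in WT GC libraries. It fell in both genotypes against the activated levels given above (-5.41, SE 1.23, adjusted p = 0.0065 in p52ki; -3.25, SE 0.88, adjusted p = 0.023 in WT). The WT call was lost without WT GC replicate 1 (adjusted p = 0.0752), WT activated replicate 3 (0.0519) or WT activated replicate 4 (0.0515). In all, the WT call of Rsad2 was kept in 10 of the 15 alternative settings. Its neighbour Cmpk2, a mitochondrial nucleotide kinase, had 0 and 14.6 CPM in p52ki GC against 100, 59.6 and 38.7 CPM in p52ki activated libraries (-2.99, SE 1.01, adjusted p = 0.0416). Cmpk2 lost the call when any of the p52ki activated libraries was left out, with an adjusted p of 0.123, 0.0772 and 0.0505 without replicates 2, 3 and 5. In all, it kept the call in 5 of the 13 alternative settings. Usp18, which removes ISG15 from proteins and inhibits the interferon receptor, had 7.38 and 0 CPM in p52ki GC against 49.3, 41.7 and 34 CPM in p52ki activated libraries (-3.54, SE 1.13, adjusted p = 0.0327). In WT it had 5.11, 0.406 and 5.74 CPM in GC against 43, 27.1 and 33.6 CPM in activated libraries (-3.19, SE 0.92, adjusted p = 0.0319). The Usp18 call was lost without any of the p52ki activated libraries (adjusted p = 0.0517 to 0.076), and in WT without any library except WT GC replicate 3 (0.0507 to 0.0787). In all, it was kept in 6 of the 13 alternative settings in p52ki and in 8 of 15 in WT.

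Slfn5 and Slfn8, Schlafen genes on chromosome 11, and Rtp4, a chaperone of membrane receptors, all fell in WT GC cells. Slfn5 had 0 and 0.151 CPM in p52ki GC against 16.8, 9.82 and 17.4 CPM in p52ki activated libraries (-7.01, SE 1.09, adjusted p = 0.000639). In WT it had 0.787, 0 and 1.21 CPM in GC against 12.9, 14.1 and 13 CPM in activated libraries (-4.19, SE 0.70, adjusted p = 0.000974). Slfn8 and Rtp4 were each split between the p52ki GC libraries, in opposite ways. Slfn8 had 26.1 and 0 CPM, and Rtp4 0 and 25.4 CPM, in p52ki GC replicates 2 and 5. In WT GC libraries Slfn8 had 3.54, 0 and 3.72 CPM and Rtp4 had 1.84, 0.203 and 5.13 CPM, and both fell against WT activated cells (Slfn8 -4.62, SE 1.12, adjusted p = 0.0125; Rtp4 -4.54, SE 1.07, adjusted p = 0.0108).

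That split was general in the GC libraries. Of the 40 members 14 had no count in p52ki GC replicate 2 and 8 in replicate 5, and 1, 15 and 3 had none in WT GC replicates 1, 3 and 4, against at most 2 in any other library. The share of all tested genes without a count was close to this in each library: 35% of members and 30.8% of tested genes in p52ki GC replicate 2, 20% and 22.4% in replicate 5, and 37.5% and 31.7% in WT GC replicate 3. The rank correlation of the 40 levels was 0.589 between the p52ki GC libraries, 0.962 between WT GC replicates 1 and 4, and 0.784 and 0.809 between WT GC replicate 3 and these. A value of 0 in the libraries with few detected genes is therefore shared with many genes, and whether it stands for absent RNA or for RNA lost before counting was not tested.

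**Figure D3:**
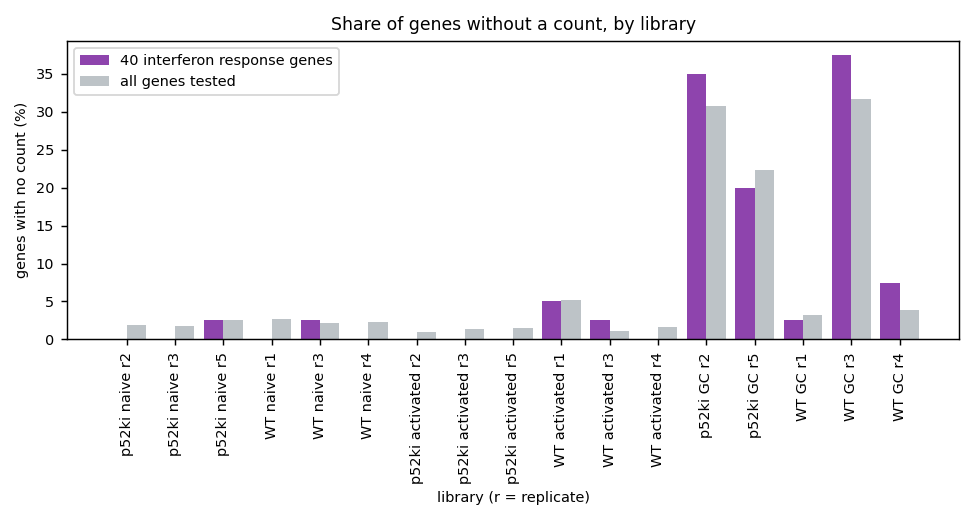
Share of genes with no count (y axis, percent) in each library, for the 40 interferon response genes (purple) and all genes tested (grey). The 3 libraries with few detected genes, p52ki GC replicates 2 and 5 and WT GC replicate 3, lie between 20% and 37.5% for the response genes, with all genes close beside them.

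Compared directly, p52ki GC cells had more RNA of some response genes than WT GC cells. This comparison uses the same GC libraries as the changes above and is not separate support for them. Of the 40 members 7 were called higher (17.5%, against 3.75% of all genes called higher) and 1 lower (2.5%, against 12.2% called lower; 16% of all genes were called in either direction). DESeq2 called 11 members (25.6% of all genes) and limma voom called 2, Mx1 and Ifi203 (0.0977% of all genes), so that the other 6 calls below were lost with limma voom (adjusted p = 0.124 to 0.542). Every p52ki GC library lay above every WT GC library for 9 members (22.5%, against 8.84% of all genes) and below for 1 (2.5%, against 16.3%). The median log2 difference was 0.29 over the members, also with genes at 0 set to their bound, and -0.32 over all genes (-0.20 with such genes at their bound). The difference was above 0 for 24 members (39% of all genes) and below 0 for 16 (59.9% of all genes).

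The gene with the largest such difference among those with counts in both groups was Mx1, whose values are given above (6.29, SE 0.76, adjusted p = 0.000122). Oasl1 was next by p (2.58, SE 0.42, adjusted p = 0.00111), with both p52ki libraries above all 3 WT libraries. Trim30a had 95.4 and 128 CPM in p52ki GC and 49.6, 47.7 and 54 CPM in WT GC libraries (1.17, SE 0.25, adjusted p = 0.00768). It had fallen against activated cells in both genotypes (-0.93, SE 0.26, adjusted p = 0.0189 in p52ki; -1.91, SE 0.24, adjusted p = 0.000109 in WT). The p52ki fall was lost without p52ki activated replicate 2 (adjusted p = 0.0765), p52ki activated replicate 5 (0.0642) or p52ki GC replicate 2 (0.116). In all, the p52ki fall kept its call in 7 of the 13 alternative settings. The 3 WT GC values of Trim30a lay close together, that of the library with few detected genes included.

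Xaf1, which binds the caspase inhibitor XIAP, had 41.6 and 26.6 CPM in p52ki GC and 6.03, 11.4 and 12.5 CPM in WT GC libraries (1.76, SE 0.42, adjusted p = 0.0129). It kept this call in 10 of the 13 alternative settings. Ifi203, of the PYHIN family of DNA-binding proteins, had 265 and 112 CPM in p52ki GC and 19.4, 106 and 33.4 CPM in WT GC libraries (1.84, SE 0.48, adjusted p = 0.0191). The groups did not overlap, but the nearest values of Ifi203, those of p52ki GC replicate 5 and WT GC replicate 3, were close to each other. Without p52ki GC replicate 2 its adjusted p was 0.154, without WT GC replicate 4 it was 0.066, and with WT GC replicate 3 as the sole WT GC library it was 0.0994. Against activated cells, both genes fell in WT (Xaf1 -2.49, SE 0.40, adjusted p = 0.000691; Ifi203 -3.0, SE 0.46, adjusted p = 0.000567), and the difference in p52ki was not called (Xaf1 -0.66, SE 0.43, adjusted p = 0.271; Ifi203 -1.13, SE 0.50, adjusted p = 0.104). The difference between the 2 changes did not pass its test for Xaf1 (1.83, SE 0.56, adjusted p = 0.0641) or for Ifi203 (1.87, SE 0.64, adjusted p = 0.0921).

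Irf9, the DNA-binding subunit of the factor that reads the ISRE, had 133 and 129 CPM in p52ki GC and 37.2, 1.83 and 41.6 CPM in WT GC libraries (2.28, SE 0.64, adjusted p = 0.0266). The p52ki values lay just below those of p52ki activated libraries (186, 164 and 165 CPM). Without WT GC replicate 3, which had the lowest value, the difference was 1.86 (adjusted p = 1.52e-05). Irf9 kept this call in 9 of the 13 alternative settings, and the fit without p52ki GC replicate 2 was among those that lost it. Its partner Stat2 had 53.6 and 4.08 CPM in p52ki GC and 49.7, 4.67 and 26.1 CPM in WT GC (0.06, SE 0.82, adjusted p = 0.977), with wide overlap. Irf7, the factor that amplifies interferon production, had 17 and 29.3 CPM in p52ki GC and 25.3, 7.71 and 28.1 CPM in WT GC (0.21, SE 0.46, adjusted p = 0.788).

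Ifitm1, which encodes a membrane protein that hinders entry of viruses, had 12 and 3.47 CPM in p52ki GC and no count in the 3 WT GC libraries, at least 58.2-fold higher over a floor of 0.133 CPM (adjusted p = 0.0127). It did not exceed 1.85 CPM in any naive or activated library. With WT GC replicate 3 as the sole WT GC library the adjusted p of Ifitm1 was 0.0743. Its relative Ifitm3, 39760 bases away, had 0 and 11.8 CPM in p52ki GC and 3.15, 0 and 4.43 CPM in WT GC libraries and was not called (1.27, SE 1.19, adjusted p = 0.489). Ifit1 was the member called lower in p52ki GC, with no count there, against 3.8, 0 and 1.71 CPM in WT GC libraries, at least 6.55-fold lower (adjusted p = 0.0244). It kept this call in 6 of the 13 alternative settings. The groups met at 0, and the call was lost without WT GC replicate 1 (adjusted p = 0.0595), p52ki GC replicate 2 (0.0703) or p52ki GC replicate 5 (0.0714).

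Isg20 and Isg15 lay wholly above in p52ki GC without passing the test. Isg20 had 77.7 and 42 CPM in p52ki GC and 25.7, 27.4 and 31 CPM in WT GC libraries (1.09, SE 0.41, adjusted p = 0.0809). Isg15 had 3.69 and 3.47 CPM in p52ki GC and 1.97, 0 and 1.51 CPM in WT GC libraries (1.58, SE 0.76, adjusted p = 0.164). The Parp9, Dtx3l and Parp14 genes, whose products form or join an ADP-ribosylation complex, had log2 differences below 0 (-0.39, SE 0.54; -0.94, SE 0.69; -0.95, SE 1.00), and none was called (adjusted p = 0.651, 0.361 and 0.54).

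**Figure D4:**
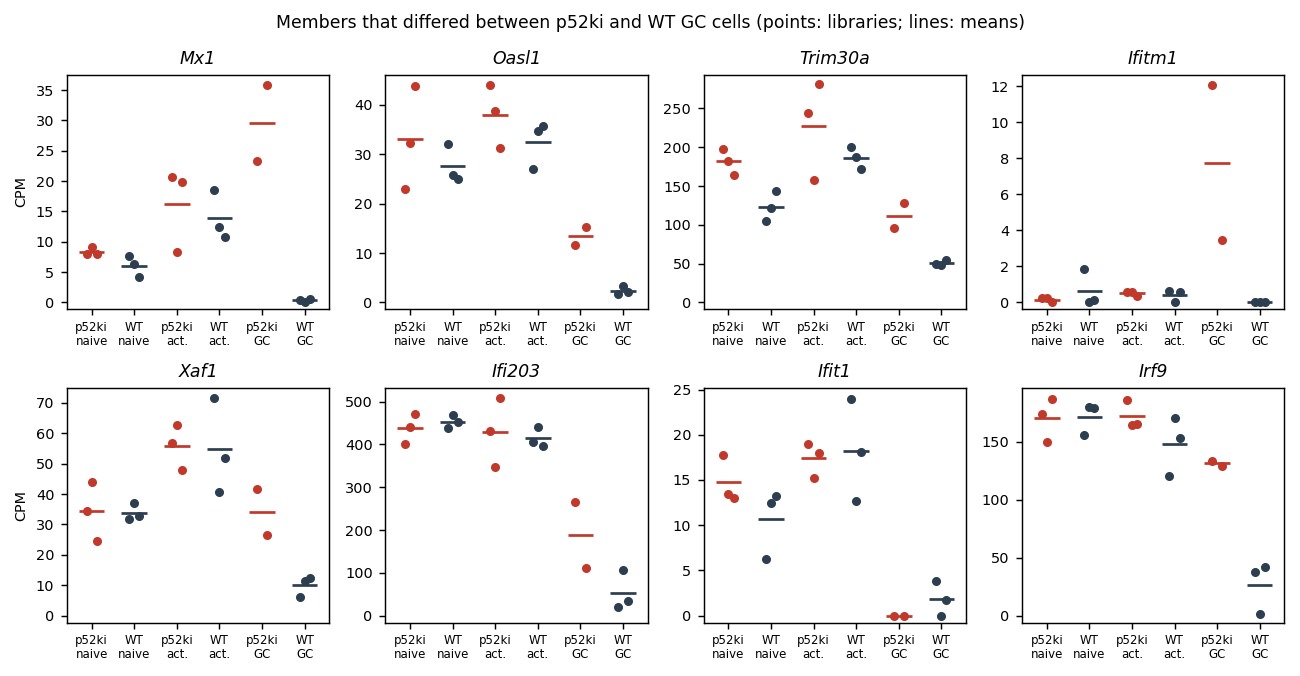
CPM (y axis, linear) of the 8 members called between p52ki and WT GC cells, in each library (points) of the 6 groups (x axis, p52ki in red left of WT in dark blue at each stage), with group means as lines. In GC cells the p52ki points lie above all WT points for every gene shown but Ifit1, where p52ki has no count and the groups meet at 0.

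Leaving out single GC libraries moved the number of called members between p52ki and WT GC cells. It was 12 without WT GC replicate 3 (28.8% of all genes called), 8 without p52ki GC replicate 2 (13.3%) and 20 without p52ki GC replicate 5 (26.9%). With WT GC replicate 3 as the sole WT GC library, so that libraries with few detected genes were set against each other, 10 members were called (23.7% of all genes), and Mx1 (no count in that WT library; adjusted p = 0.000138), Oasl1 (2.11, adjusted p = 0.00946), Trim30a (1.29, adjusted p = 0.0193), Irf9 (6.21, adjusted p = 7.57e-07) and Xaf1 (1.62, adjusted p = 0.0409) were still higher. In the fits that leave 1 library in a GC group, that library is assumed to vary like the other groups. With the GC libraries fitted alone, where their own spread replaces that shared with naive and activated cells, 0 members and 0% of all genes were called, with 3 members at an unadjusted p under 0.05.

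Markers of other cells moved with this comparison. All 6 naive B cell markers had counts in every GC library, and they summed to 1382 and 1401 CPM in p52ki GC and 492, 679 and 632 CPM in WT GC libraries; 5 of the 6 were called higher in p52ki GC. Of the 14 macrophage, monocyte and dendritic cell markers, 8 had a count in p52ki GC libraries and 12 in WT GC libraries, with sums of 170 and 144 CPM in p52ki and 99.5, 70.6 and 89.5 CPM in WT. Of these, Ly6c2 was called higher in p52ki GC (23.4 to 106.5 CPM, against 3.15 to 10.97 CPM in WT GC), and Lyz2 and Csf1r were called lower. C1qb had 16.0 to 28.2 CPM in p52ki GC and 1.51 to 12.4 CPM in WT GC libraries. Lyz2, Csf1r, Itgax, Ccr2, Marco and Clec9a were at 0 in both p52ki GC libraries. For plasmacytoid dendritic cells, which make much type I interferon, 4 of 7 markers had a count in p52ki GC and 7 of 7 in WT GC, and the sums of 383 and 219 CPM in p52ki and 315, 150 and 287 CPM in WT were mostly Tcf4, which B cells also express. Siglech did not exceed 0.151 CPM in p52ki GC or 0.503 CPM in WT GC libraries. T cell markers summed to 61.7 to 78.7 CPM in p52ki GC and 48.5 to 125 CPM in WT GC, with 4 of 9 and 9 of 9 having a count. Among them Cd3d (0.755 to 11.6 CPM in p52ki GC, against 0 to 0.393 CPM in WT GC) and Cd3e (0 to 27.1 CPM, against 0 to 0.704 CPM) were called higher in p52ki GC and Trac lower, and Trac, Cd3g, Cd4, Cd8a and Cd28 were at 0 in p52ki GC. NK cell markers summed to 33.4 and 0 CPM in p52ki GC, with 2 of 7 having a count, and to 3.93, 0.609 and 7.75 CPM in WT GC, with 7 of 7. Erythroid and platelet markers summed to 257.7 and 305.8 CPM in p52ki GC, with 3 of 8 having a count, all globin genes, and to 48.1, 61.9 and 185.3 CPM in WT GC, with 7 of 8; none was called. The part of these markers in the levels of the response genes was not tested.

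The ligands themselves were almost unseen. Of 18 type I interferon genes 16 had no count in any of the 17 libraries, among them all 15 alpha and beta genes, and Ifnk and Ifnz had 14 and 5 counts in all. Ifng had 72 counts. Of 14 genes of the receptor, its kinases, factors and inhibitors, 3 were called lower in GC than in activated cells in each genotype and none higher. Of all genes 19.3% were called lower in p52ki and 7.75% in WT. Irf1 and Socs3 were among the 3 in both genotypes, and Ptpn6 was called lower in p52ki. Irf1, a factor shared with the interferon-gamma response, averaged 34.2 ± 15.6 CPM in p52ki GC and 149 ± 17.1 CPM in p52ki activated cells (SD, n = 2 and 3; log2 difference -2.06, SE 0.34, adjusted p = 0.000933). In WT it averaged 36.7 ± 16.1 CPM in GC and 127 ± 18.7 CPM in activated cells (SD, n = 3 each; -1.80, SE 0.29, adjusted p = 0.000738). Irf1 fell in both genotypes, whereas the Irf9 fall was called in WT alone (-0.31, SE 0.64, adjusted p = 0.753 in p52ki; -2.44, SE 0.60, adjusted p = 0.014 in WT; adjusted p = 0.144 for the difference).

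Of 12 tested genes that sense nucleic acids upstream of interferon, 4 were lower in GC than in activated cells in each genotype and none higher: Ikbke, Tlr7, Tlr9 and Unc93b1 in p52ki, where 19.3% of all genes were called lower, and Tlr7, Tlr3, Tmem173 and Unc93b1 in WT, where 7.75% were. Tlr7, the endosomal receptor for single-stranded RNA, averaged 1.58 ± 2.24 CPM in p52ki GC and 75.9 ± 16.9 CPM in p52ki activated cells (SD, n = 2 and 3; -5.32, SE 1.16, adjusted p = 0.00545). In WT it averaged 3.96 ± 4.19 CPM in GC and 82.3 ± 31.5 CPM in activated cells (SD, n = 3 each; -4.27, SE 0.90, adjusted p = 0.00528). The receptor for DNA, Tlr9, had no count in p52ki GC cells, at least 11-fold lower than in WT GC cells (adjusted p = 0.00141). Traf3, an adaptor of interferon induction and a brake on noncanonical NF-kB, was higher in p52ki GC, at 47.3 ± 21.4 CPM against 12.5 ± 7.85 CPM in WT GC cells (SD, n = 2 and 3; 1.95, SE 0.53, adjusted p = 0.0237).

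Of 22 tested genes more closely tied to interferon-gamma, 12 were lower and 2 higher in p52ki GC than in p52ki activated cells, beside 19.3% and 6.34% of all genes. In WT 12 were lower and 1 higher, beside 7.75% and 5.8% of all genes. Psmb8, an immunoproteasome subunit, was higher in both (0.93, SE 0.23, adjusted p = 0.0101 in p52ki; 0.70, SE 0.21, adjusted p = 0.037 in WT). Between p52ki and WT GC cells, B2m and H2-K1, subunits of MHC class I, were higher in p52ki, and Tap1 and Gbp2 were lower. Gbp2, a guanylate-binding GTPase, had no count in p52ki GC libraries, against 13.3 ± 4.35 CPM in WT GC cells (SD, n = 3), at least 47.3-fold lower (adjusted p = 2.66e-05). It was at least 199-fold lower in p52ki GC than in p52ki activated cells (55.9 ± 9.70 CPM, SD, n = 3; adjusted p = 6.18e-06). In the same p52ki GC libraries, then, both Mx1 values lay above those of all activated libraries, while Gbp2, Mx2, Oas2 and Ifit1 had no count. Having no count in either library was common in that group. It held for 2532 of the 15352 tested genes and for 4 members. In WT GC cells 233 tested genes and 1 member had no count in any library.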

How the data were processed

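Raw counts for each gene were deposited by the authors as 1 table. Per the submitters' processing notes, the tools used were Subread 1.6.2 with featureCounts, HISAT2 2.1.0 and SAMtools 1.8, and the build was GRCm38. Per the labels' protocols, cDNA was amplified from very little RNA and no molecular identifiers are named, so amplified copies may be counted repeatedly, and floors cover counting error only. Neither the labels nor the table state the strand setting, how multiply matching reads were counted, or the annotation release. Coordinates and exon lengths are from GENCODE M21 (GRCm38), promoters from RefSeq (GRCm38.p6).

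The 40 genes and all lists were chosen with earlier results of these data known. Counts were tested with edgeR 4.0.16 in R 4.3.3 (filterByExpr, TMM, glmQLFit with robust estimation, glmQLFTest), with 1 coefficient for each of the 6 groups over all 17 libraries and 9 contrasts, including p52ki minus WT in each stage change. A gene was called at a Benjamini-Hochberg adjusted p under 0.05 over 15352 genes. CPM use plain library totals. Where a whole group had no count, folds are bounds from 3 counts summed over the group. No label says that replicates are separate animals, so p-values measure the spread between these libraries. Replicates of a group differed by more than counting error (chi-square per degree of freedom of at least 7.88). Deviations of same-numbered naive and activated libraries correlated at 0.107 to 0.362 in each pair, and those of differently numbered ones at -0.322 to 0.219. The numbers were taken to pair these stages by this check of the data alone. The ranges overlap, so the pairing is uncertain. Libraries of one genotype and replicate number also have consecutive library numbers over the stages, but the labels do not say what the replicate number stands for. The main fit used no pairing, so its p-values for stage changes are unpaired, and the replicate block was an alternative. Activated and GC libraries of the same number correlated at -0.295 to 0.0853 and were not taken as pairs. This check could not exclude pairing there. The deviations of the 2 p52ki GC libraries mirror each other, and some GC libraries had few detected genes. The fits were tested on simulated data, with a common level and spread for each gene and changes planted in WT GC cells only. No simulated library had a loss of detected genes, so the test does not cover that trait of the GC libraries. DESeq2 1.42.0 and limma 3.58.1 were alternatives, beside RLE scaling, no filter, removal of 395 immunoglobulin genes, a covariate for detected genes, the libraries of the compared groups alone, a replicate block, and leaving out libraries. Per-library values were given for up to 10 members with the smallest p in WT GC against activated cells and in p52ki GC against WT GC cells, for those called between genotypes, and for others as the text needed them, chosen after their values were seen. Some genes are not reported here.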

Additional observations from a re-analysis of the deposited data

Results flagged for a closer look

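The change from activated to GC cells differed between p52ki and WT by a test of the difference itself for 2 of the 40 genes. For Mx1 the difference was 6.18 on the log2 scale (SE 0.93, adjusted p = 0.00114): both p52ki GC libraries were above, and all 3 WT GC libraries below, every activated library of their genotype. For Oasl1 it was 2.42 (SE 0.55, adjusted p = 0.0193): the GC libraries of each genotype were below all activated libraries, and those of WT further below. The Oasl1 difference kept its call in 13 of the 20 alternative settings (adjusted p up to 0.255). The naive marker sum, which moved with genotype in GC cells, was 1382 and 1401 CPM in p52ki GC and 492 to 679 CPM in WT GC libraries, and its part in these differences was not tested.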

How the results depend on the processing

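No called difference of a member changed sign under any alternative run. With WT GC replicate 3 as the sole WT GC library Ifit1 was at 0 in both genotypes. For called genes outside the members, such as Irf1, Tlr7 and Gbp2, the sign under alternative runs was not tested. Called members in p52ki against WT GC cells (8) numbered 2 with limma voom, 0 with the GC libraries alone, and 7 to 20 with a library left out. In WT GC against activated cells (16) they numbered 26 with limma voom, 6 with these groups alone, and 13 to 20 with a library left out. In p52ki GC against activated cells (12) they numbered 0 with limma voom, 7 with the replicate block, and 8 to 23 with a library left out (23 without p52ki GC replicate 5). For activated against naive cells (0) they numbered 5 in p52ki and 7 in WT with limma voom, and 1 in each with these groups alone. For the difference of the GC changes (2) they numbered 7 with DESeq2, 5 with the detected-genes covariate, 1 with limma voom, the groups alone or the replicate block, 6 with WT GC replicate 3 as the sole WT GC library, and 1 to 12 with a library left out (12 if p52ki GC replicate 5 was dropped, 11 if WT GC replicate 3, 5 if p52ki GC replicate 2, and 1 if WT activated replicate 4 or p52ki activated replicate 2 or 5). These counts of members are given without the share of all genes called in the same run, except where it is stated above. The cause of these moves was not tested. The replicate block, in stages not taken as paired, gave 11 members in WT GC against activated cells and an adjusted p of 0.0988 for the Oasl1 difference. Comparisons between genotypes were not paired, because the labels name no pairs of p52ki and WT libraries. Genes near 1 count (0.0996 to 0.246 CPM) cannot be ordered at this depth.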
